A study of Homo sapiens with 3 samples.

Results

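Gluconeogenesis and glycogen metabolism were described through 9 genes of the liver: G6PC, G6PC3, SLC37A4, PCK1, PCK2, FBP1, PC, GYS2 and PYGL. Their rows were found by gene name, with no limit on their values, and the list itself was drawn up with earlier results of these data known. Each of the 9 names had 1 row among the 39320 gene rows that lay on full chromosomes and were shared by all libraries. RNA came from 3 libraries labelled as wild-type (WT) HepG2, a cell line long established from a human liver tumour, and no treatment or second genotype was included. Poly(A) RNA was extracted from the cultured cells and sequenced, and the authors deposited coverage, FPKM and TPM for each gene. TPM is a transcript level scaled for gene length and for the total of the library, so that genes can be compared with each other. The labels do not say whether the replicates came from separate cultures, so the SD given here may be technical.

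Gluconeogenesis makes glucose from lactate, amino acids and glycerol, and it is the main way in which the liver keeps blood glucose up during fasting. It runs through the reversible steps of glycolysis and bypasses the irreversible ones with its own enzymes. Pyruvate carboxylase (PC) and phosphoenolpyruvate carboxykinase (PEPCK, made by PCK1 in the cytosol and by PCK2 in mitochondria) turn pyruvate into phosphoenolpyruvate. Fructose-bisphosphatase (FBP1) removes a phosphate from fructose bisphosphate, and glucose-6-phosphatase (G6PC) releases free glucose in the endoplasmic reticulum, into which SLC37A4 carries glucose-6-phosphate. G6PC3 is the widely expressed relative of G6PC. The liver also stores glucose as glycogen, which GYS2, the liver glycogen synthase, builds and PYGL, the liver glycogen phosphorylase, breaks down.

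The cell type named in the labels was checked first. All 10 hepatocyte markers examined, among them ALB, APOA1, APOB, SERPINA1 and AFP, were below 1 TPM in every library, and 7 of them were listed at 0 in all 3. Their summed level was 0.0571 to 0.244 TPM. Of all protein-coding rows, 19.8% were listed at 0 in all 3 libraries. Each of 10 housekeeping genes reached 10 TPM in every library, with sums of 10630 to 11311 TPM. Of the markers of other cells, the cholangiocyte gene KRT7 stood at 544 ± 5.71 TPM (SD, n = 3), while the cholangiocyte genes KRT19 and EPCAM were below 1 TPM. The summed level of 3 endothelial markers was 1.45 to 1.85 TPM, and that of 5 stellate or fibroblast markers 8.92 to 11.1 TPM. For 5 blood markers the sum was 9.84 to 11.5 TPM, most of it on CD68 at 9.41 ± 0.965 TPM (SD, n = 3). PTPRC, LYZ and SPARC were listed at 0. HepG2 cells are known to express ALB, APOA1, APOB, SERPINA1 and AFP, so these levels go against the label, and the identity of the cells is in doubt. Every value below, and above all the low level of liver forms, holds for the libraries labelled HepG2 and cannot be taken as that of HepG2 cells.

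The sequences before the start sites of 3 members are shown because these genes mark the ends of the range of RNA levels: G6PC was listed at 0, and G6PC3 and PYGL were the highest. Motifs were searched in the 250 bases before each start, on the strand of the gene, from RefSeq (GRCh38.p14). Printed here is the stretch of 248, 135 and 203 of these bases that lies before the deposited row of the gene and before any exon of it in GENCODE v44. For FBP1 no such stretch was left, since its row covers the window. Capitals mark 5 motifs on either strand. They were the TATA box as TATAAA, the full cAMP response element as TGACGTCA, the E-box as CACGTG, the GC box as GGGCGG and the CCAAT box. The cAMP response element and the E-box read the same on both strands.
G6PC, chr17:42900549-42900796, plus strand: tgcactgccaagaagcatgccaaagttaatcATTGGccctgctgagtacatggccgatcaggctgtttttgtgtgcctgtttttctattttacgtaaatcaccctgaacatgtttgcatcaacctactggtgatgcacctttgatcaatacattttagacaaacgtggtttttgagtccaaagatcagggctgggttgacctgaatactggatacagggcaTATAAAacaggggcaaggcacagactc
G6PC3, chr17:44070485-44070619, plus strand: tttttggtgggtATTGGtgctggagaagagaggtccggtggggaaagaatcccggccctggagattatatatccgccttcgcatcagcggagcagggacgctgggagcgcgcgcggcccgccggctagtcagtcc
PYGL, chr14:50944531-50944733, minus strand: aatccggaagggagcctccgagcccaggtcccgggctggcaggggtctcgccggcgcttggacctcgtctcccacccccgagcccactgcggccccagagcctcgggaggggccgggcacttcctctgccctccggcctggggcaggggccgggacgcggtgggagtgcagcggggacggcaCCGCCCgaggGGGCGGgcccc

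RefSeq start sequences were matched for 7 of the 9 members, and not for PCK1 and GYS2. The start was that of the MANE transcript, the reference transcript shared by RefSeq and GENCODE, or the outermost start for SLC37A4. In G6PC, TATAAA began 29 bases before the start, a match found in 10.7% of the 35116 start sequences of RefSeq. It was in none of the other 6 members at the starts used, although a second RefSeq start of SLC37A4 had it. The G6PC window held 3 CpG dinucleotides, against a median of 11 over all start sequences. FBP1 held 26 CpG, within the range of the 5 members above 1 TPM, which held 17 (PCK2) to 27 (PYGL). Of the members below 1 TPM only G6PC and FBP1 had a start sequence, and the FBP1 window lies inside its deposited row. Whether the number of CpG goes with the RNA level was not tested. CACGTG was found at 53 and 73 bases before the start of G6PC3 and in none of the other 6 members, against 6.34% of all start sequences. Both matches lie past the end of the stretch printed for G6PC3, which stops where a GENCODE v44 exon of the gene begins. GGGCGG was present in FBP1, PC, PCK2, PYGL and SLC37A4 and in 42.6% of all start sequences. CCAAT lay in G6PC, G6PC3, PC, PCK2 and SLC37A4 and in 32.0% of all. The full cAMP response element was in none of the 7 and in 1.65% of all, and variant forms of it were not searched. These are matches of letters in a short window and not measured binding sites.

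The members fell into a high and a low set with a wide gap between them. In every library, 5 of the 9 members (55.6%) had at least 1 TPM, and the other 4 were below 1 TPM in all 3. This limit was reached by 33.8% of all gene rows and by 59.5% of protein-coding rows, so that the share of the members was close to that of protein-coding genes. The lowest value in the high set was 16.0 TPM and the highest in the low set 0.442 TPM. The median of the members was 17.1 TPM, against 4.91 TPM over protein-coding rows. Together the 9 members summed to 260.3, 259.6 and 256.9 TPM in replicates 1, 2 and 3. RNA from fewer expressing cells and less RNA per cell cannot be told apart in these bulk samples.

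**Figure D1:**
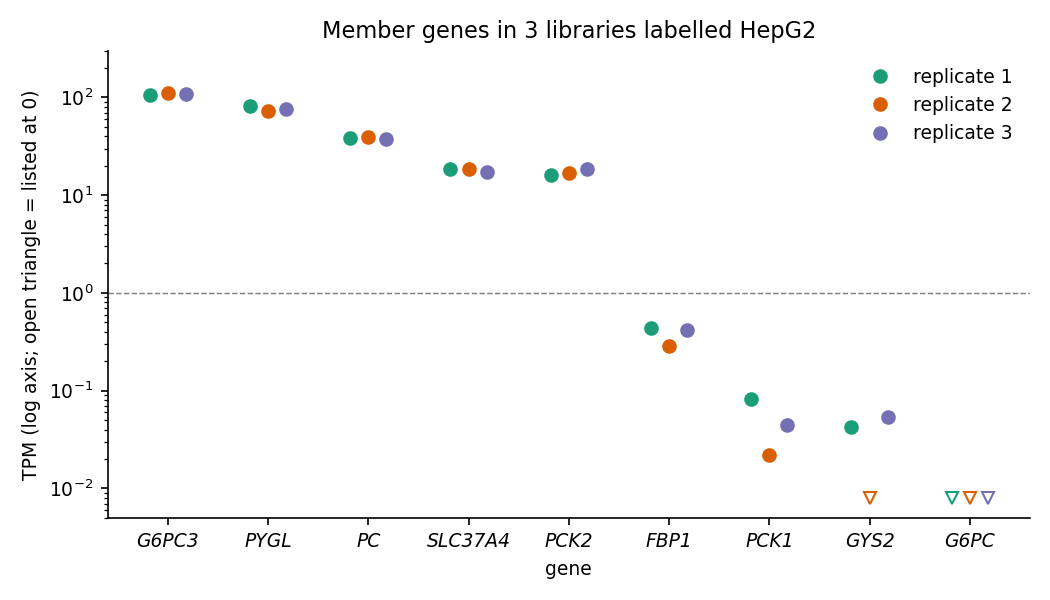
TPM (log axis) of each member in each of the 3 libraries, with open triangles for values listed at 0 and a dashed line at 1 TPM. G6PC3, PYGL, PC, SLC37A4 and PCK2 lie at 16.0 TPM or above in every library, and FBP1, PCK1, GYS2 and G6PC at 0.442 TPM or below.

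Of the 3 glucose-6-phosphatase genes, only G6PC3 was listed above 0 TPM. G6PC (chromosome 17, plus strand, 42900797 to 42914433 in GRCh38) was listed at 0 TPM in all 3 libraries, and so was its islet relative G6PC2. G6PC3 (chromosome 17, plus strand, 44070700 to 44076344) had 106, 111 and 107 TPM in replicates 1, 2 and 3. Its mean of 108 ± 2.92 TPM (SD, n = 3) was the highest of the members and exceeded 90.0% of the 13753 genes whose mean reached 1 TPM. All of the summed TPM of the 3 glucose-6-phosphatase genes was thus on G6PC3. No fold is given against G6PC, since it was listed at 0 in a table without read counts. Housekeeping genes were well above 0, while 19.8% of protein-coding rows were listed at 0 in all 3 libraries. Whether the 0 of G6PC was a failed estimate was not tested.

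SLC37A4 (chromosome 11, minus strand, 119024112 to 119030906) encodes the transporter that brings glucose-6-phosphate to the phosphatase. It had 18.7, 18.4 and 17.1 TPM, a mean of 18.0 ± 0.858 TPM (SD, n = 3). This level exceeded 54.2% of the genes with at least 1 TPM, so it was near the middle of the expressed genes. SLC37A4 was below G6PC3 in every library, by ranges that did not overlap.

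Of the PEPCK genes, the mitochondrial form was present and the cytosolic form was close to 0. PCK2 (chromosome 14, plus strand, 24094131 to 24104132) had 16.0, 16.9 and 18.4 TPM and a mean of 17.1 ± 1.20 TPM (SD, n = 3). PCK1 (chromosome 20, plus strand, 57561110 to 57568121), the form whose transcription hormones control in liver, had 0.0822, 0.0219 and 0.0449 TPM. Every value of PCK2 was far above every value of PCK1, and PCK2 made up 99.7% ± 0.195 (SD, n = 3) of the TPM of the pair. The log2 ratio of PCK2 to PCK1 on the log2(TPM + 1) scale was 4.11 ± 0.12 (SD, n = 3), in the same direction in 3 of 3 libraries. The row of PCK1 has the same ends as its MANE transcript of 4320 nt, and its coverage over this length equals 2226, 582 and 1066 aligned bases. These are only 14.8, 3.88 and 7.11 reads of 150 bases, which is the depth behind the values of PCK1 and leaves no order between its libraries. The row of PCK2 lies within that of NRL on the opposite strand, which had 0.278 ± 0.0134 TPM (SD, n = 3) and shares 0 bp of exon with PCK2 in GENCODE v44.

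PC (chromosome 11, minus strand, 66848522 to 66958418) carboxylates pyruvate to oxaloacetate in mitochondria. It had 38.4, 39.3 and 37.4 TPM, a mean of 38.4 ± 0.995 TPM (SD, n = 3), and exceeded 72.9% of the genes with at least 1 TPM. LRFN4, a gene on the opposite strand that lies within the row of PC, had 87.1 ± 1.27 TPM (SD, n = 3). In GENCODE v44, 621 bp of exon are shared by the 2 genes, 0 of them in the MANE transcript of PC. The strand setting of the counting is not given in the sources used here, and the part of LRFN4 reads in the value of PC was not tested.

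The place of PC depended on the measure. Coverage is the mean read depth over a gene, and within a library its ratio to FPKM was at 1 shared value in about 20.9% to 21.1% of the genes above 1 FPKM. PC had 0.345, 0.344 and 0.345 of that value in replicates 1, 2 and 3, the lowest of the 5 members above 1 TPM. PYGL had 0.980, 0.981 and 0.982. By TPM, PC was above SLC37A4 in 3 of 3 libraries, with a ratio of means of 2.13. By coverage it was below SLC37A4 in 3 of 3 libraries, with 83.1, 83.1 and 70.9 against 96.7, 87.3 and 78.1. What sets this difference between the measures was not tested, and the TPM of PC should be read with it.

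**Figure D2:**
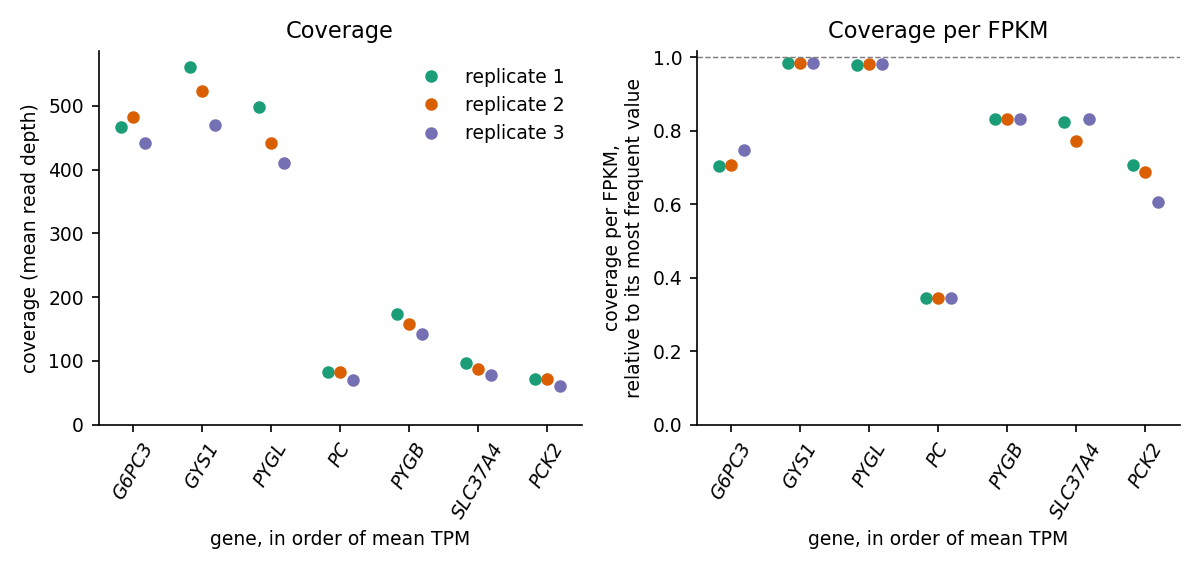
Left, coverage (mean read depth, not scaled for library size) of the members and paralogs with a mean of at least 1 TPM, in order of mean TPM. Right, coverage per FPKM relative to its most frequent value in the library, where PC stands at 0.344 to 0.345 and PYGL at 0.980 to 0.982.

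Both fructose-bisphosphatase genes were below 1 TPM in every library. FBP1 (chromosome 9, minus strand, 94603133 to 94640258) had 0.442, 0.288 and 0.422 TPM and a mean of 0.384 ± 0.0841 TPM (SD, n = 3). FBP2, the muscle form and neighbouring gene on the same strand, had 0.258, 0.439 and 0.171 TPM. The values of the pair overlapped, and FBP1 was higher in 2 of 3 libraries. The log2 ratio of FBP1 to FBP2 was 0.11 ± 0.23 (SD, n = 3) on the log2(TPM + 1) scale. Both genes were below FBP1's counterpart in glycolysis, phosphofructokinase, whose genes PFKL, PFKM and PFKP had 82.4 ± 2.06, 118 ± 2.32 and 108 ± 3.42 TPM (SD, n = 3).

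Glycogen synthase RNA was that of GYS1, the form of muscle and most other tissues. GYS2 (chromosome 12, minus strand, 21531527 to 21604858) had 0.0424, 0 and 0.0535 TPM in replicates 1, 2 and 3. GYS1 had 90.8, 86.4 and 86.7 TPM, a mean of 88.0 ± 2.50 TPM (SD, n = 3). Of the TPM of the pair, GYS2 held 0.0361% ± 0.0322 (SD, n = 3). The 3′ end of the GYS2 row overlaps SPX, a gene on the opposite strand with 0.852 ± 0.152 TPM (SD, n = 3), over 1421 bp (21531527 to 21532947). In GENCODE v44 both genes share 375 bp of exon. These lie outside that stretch, as the only GYS2 transcript there has its 3′ end at 21536107. The part of SPX reads in the value of GYS2 was not tested.

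PYGL was the exception among the liver forms of the members. PYGL (chromosome 14, minus strand, 50905217 to 50944530) had 81.0, 73.3 and 76.1 TPM and a mean of 76.8 ± 3.89 TPM (SD, n = 3), which exceeded 85.6% of the genes with at least 1 TPM. PYGB, the brain form, had 33.2, 30.9 and 30.9 TPM. PYGM, the muscle form whose loss causes McArdle disease, had 0.364, 0.154 and 0.255 TPM. PYGL was above PYGB and PYGM in every library. Of the summed TPM of the 3 phosphorylase genes, PYGL made up 70.7%, 70.2% and 70.9%, or 70.6% ± 0.344 (SD, n = 3), and PYGB 29.1% ± 0.406 (SD, n = 3). By coverage the share of PYGL was 73.9% ± 0.312 (SD, n = 3).

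By mean TPM the members stood in the order G6PC3, PYGL, PC, SLC37A4, PCK2, FBP1, PCK1, GYS2 and G6PC. Neighbours in this order differed beyond the range of their replicates, except for 3 pairs. SLC37A4 and PCK2 overlapped, and SLC37A4 was higher in 2 of 3 libraries by TPM and in 3 of 3 by coverage. PCK1 and GYS2 overlapped near 0, as did GYS2 and G6PC. PCK2 was 44.5 times as high as FBP1 by their means, the widest step in the order above 0. By coverage, G6PC3 was above PYGL in 2 of 3 libraries only, with 467, 483 and 442 against 498, 442 and 411.

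The variation of the members above 1 TPM between replicates lay on both sides of the median of other genes. The coefficient of variation was 2.59% for PC, 2.70% for G6PC3, 4.76% for SLC37A4, 5.07% for PYGL and 7.0% for PCK2, against a median of 4.88% over the 8419 genes whose mean reached 10 TPM. PCK2 thus varied most of the 5, more than 73.1% of these 8419 genes, with its highest TPM in replicate 3. When its coverage was divided by the most frequent coverage per FPKM of the library, a measure of relative depth, PCK2 had 5.35, 5.56 and 5.34 in replicates 1, 2 and 3, a coefficient of variation of 2.28%. The high value of replicate 3 was thus present in TPM and absent from depth-scaled coverage.

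Within each library, 10 ratios were compared, 6 of them between paralogs and 4 between a member and the enzyme of the opposing step. An exact permutation test, two-sided and made by flipping signs over the 3 libraries, gave p = 0.25, the smallest that this design allows, for 9 ratios and p = 0.5 for FBP1 to FBP2. After Benjamini-Hochberg adjustment over the 10 ratios these were 0.278 and 0.5 by the same exact test, so no ratio could pass a threshold of 0.05. PYGB stood below PYGL by a log2 ratio of -1.25 ± 0.03 and PYGM by -5.95 ± 0.05, and GYS1 stood above GYS2 by 6.43 ± 0.04 (SD, n = 3), each in 3 of 3 libraries. The ratios with PYGM and GYS2 depend on the pseudocount because both genes are near 0. With a pseudocount of 0.1 they were -7.79 for PYGM to PYGL and 9.41 for GYS1 to GYS2.

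Set against the opposing steps, the place of G6PC3 depended on which hexokinase gene was taken. G6PC3 was above HK2 with a log2 ratio of 2.25 ± 0.10 (SD, n = 3). HK1, with 116, 113 and 112 TPM in replicates 1, 2 and 3, was above G6PC3 in every library by TPM, while its mean coverage of 67.4 was below the 464 of G6PC3. HK2 had 22.0 ± 1.08 TPM (SD, n = 3), and HK1 was higher than HK2 by TPM at 114 ± 1.82 (SD, n = 3) but lower by mean coverage, where HK2 had 123. FBP1 was below PFKL with a log2 ratio of -5.91 ± 0.12 (SD, n = 3), which became -7.43 with a pseudocount of 0.1. PC was below the pyruvate kinase gene PKM with a log2 ratio of -4.77 ± 0.03 (SD, n = 3). PKM had 1070.2 ± 13.8 TPM (SD, n = 3), so PC stood at 0.0358 of it by TPM. PYGL and GYS1, which act in opposite directions on glycogen, were close, with PYGL lower in 3 of 3 libraries and a log2 ratio of -0.19 ± 0.04 (SD, n = 3). All of these are RNA levels, and they do not measure the activity of the enzymes.

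**Figure D3:**
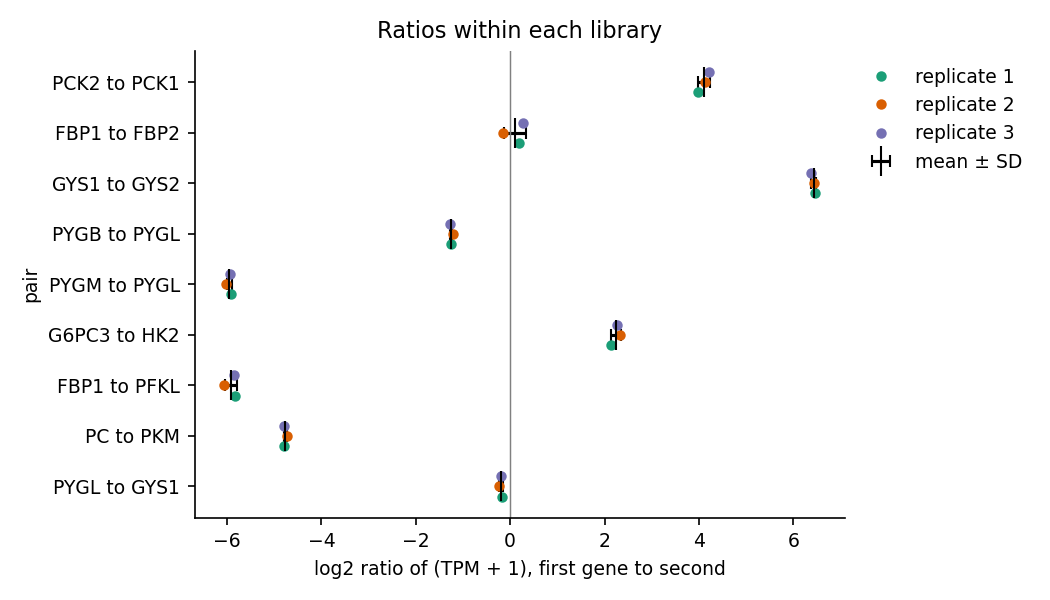
Log2 ratio of (TPM + 1) of the first gene to the second within each of the 3 libraries, with the mean and SD over libraries. The ratio of FBP1 to FBP2 crosses 0 and every other ratio keeps its side in 3 of 3 libraries. The pair of G6PC3 and G6PC is not drawn because G6PC was listed at 0.

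The liver form was then set against the other forms in each of 8 steps of glucose and glycogen metabolism, a grouping that was chosen after the values were seen. In 5 of the 8 steps the liver form held under 1% of the summed TPM, and in the same 5 it did by coverage. G6PC and SLC2A2 (the liver glucose transporter) were listed at 0 in all 3 libraries. PCK1 held 0.295% ± 0.195, GYS2 0.0361% ± 0.0322 and PKLR (liver pyruvate kinase) 0.00308% ± 0.00125 of their steps (SD, n = 3). These small shares rest on few reads. Without replicate 2 the share of GYS2 was 0.0542% and without replicate 3 it was 0.0233%, and without replicate 1 that of PCK1 was 0.187%. By coverage the share of PKLR was 0.00940%. The other 3 steps were those of PYGL, of FBP1 with 58.0% ± 16.4, and of PFKL with 26.7% ± 0.243 (SD, n = 3). The share of PFKL depended on the measure and was 37.7% ± 0.356 (SD, n = 3) by coverage. In the step of FBP1 both genes were below 1 TPM, so that its share rests on values near 0.

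**Figure D4:**
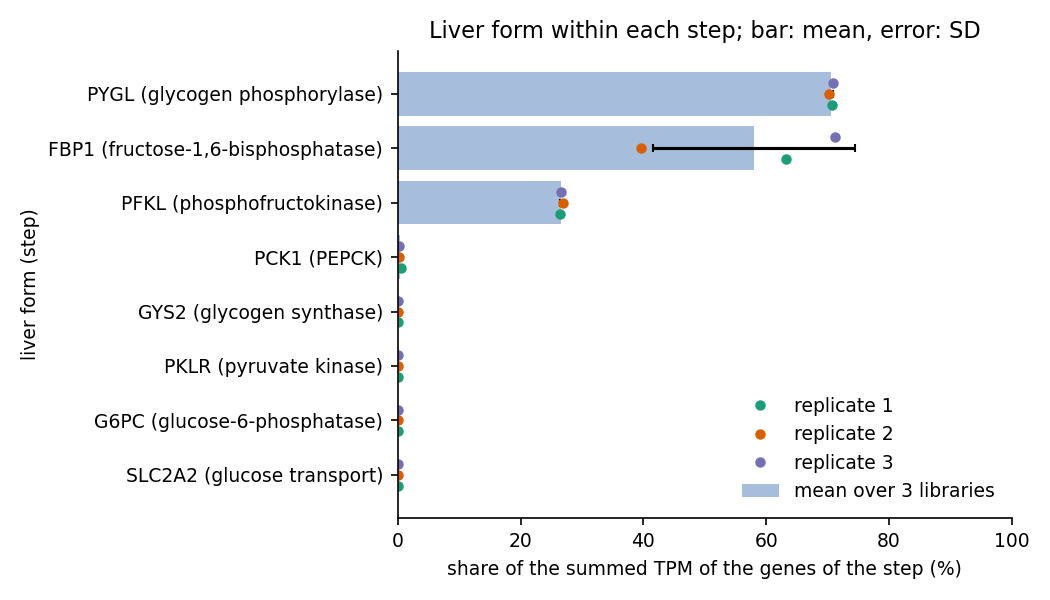
Share (%) of the liver form in the summed TPM of the genes of its step, as the mean over 3 libraries (bar), SD (error bar) and each library (points). PYGL holds 70.6%, FBP1 58.0% and PFKL 26.7%, and the other 5 liver forms hold under 1%.

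Most genes of the related lists were present. Of 82 other genes in 8 lists, 69 (84.1%) had at least 1 TPM in every library, and 4 were listed at 0 in all 3. The same limit was reached by 33.8% of all gene rows and by 59.5% of protein-coding rows, and 19.8% of protein-coding rows were listed at 0 in all 3. These lists include the housekeeping gene PGK1 and were drawn up with earlier results of these data known. The median of the 82 genes was 22.7 TPM. Enzymes that surround glycogen synthase were present in 7 of 8 cases, from GYG2, the liver glycogenin, at 0.133 ± 0.0327 TPM to UGP2, which makes UDP-glucose, at 97.2 ± 2.56 TPM (SD, n = 3). Of 8 genes of glycogen breakdown and its control, 7 reached the limit, from the phosphorylase kinase subunit PHKG1 at 0.757 ± 0.163 TPM to the subunit PHKA2 at 27.7 ± 0.884 TPM (SD, n = 3). The list of glycogen-targeting phosphatase subunits, with laforin and malin, was lower, with 7 of 9 at the limit and a median of 2.84 TPM. In it, PPP1R3A, the muscle subunit, and NHLRC1, which encodes malin, were listed at 0, and PPP1R3F was highest at 18.0 ± 0.301 TPM (SD, n = 3).

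Genes that feed or share the route had higher medians than the 17.1 TPM of the members, a difference that was not tested. Of 16 genes of substrate supply, 15 had at least 1 TPM in every library with a median of 65.1 TPM, from the glycerol-phosphate dehydrogenase GPD1 at 0.660 ± 0.159 TPM to the lactate dehydrogenase LDHA at 1441 ± 27.2 TPM (SD, n = 3). Of 12 genes of steps shared with glycolysis, 11 did, with a median of 325 TPM and the highest level in GAPDH at 7264 ± 82.8 TPM (SD, n = 3). In glucose entry, exit and phosphorylation 3 of 8 reached the limit, namely SLC2A1 with 92.5 ± 0.683 TPM (SD, n = 3), HK1 and HK2. The shares that reached it were 33.8% over all gene rows and 59.5% over protein-coding rows. SLC2A2 was listed at 0, HK3 reached at most 0.0429 TPM in any library, and SLC2A3 had 0.0833 ± 0.0116 TPM (SD, n = 3). For phosphofructokinase, its bifunctional regulators and pyruvate kinase the number was 7 of 9, from PKLR at 0.0330 ± 0.0136 TPM (SD, n = 3) to PKM.

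Against 59.5% of protein-coding rows, all 12 genes of hormone and cAMP control had at least 1 TPM in every library. Their lowest mean was that of IRS1, an insulin receptor substrate, at 4.80 ± 0.332 TPM and their highest that of PRKACA, the catalytic subunit of protein kinase A, at 59.0 ± 7.91 TPM (SD, n = 3). PPARGC1A, a coactivator of gluconeogenic genes, and the glucagon receptor gene GCGR had 7.35 ± 0.308 and 5.21 ± 0.533 TPM (SD, n = 3), and these 2 were chosen after their values were seen. The list mixes genes of insulin and of glucagon signalling, so its count gives no direction of control. PCK1 and G6PC, known targets of cAMP signalling, were at or near 0 in the same libraries. No link between the level of any regulator and that of PCK1 or G6PC was tested.

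**Figure D5:**
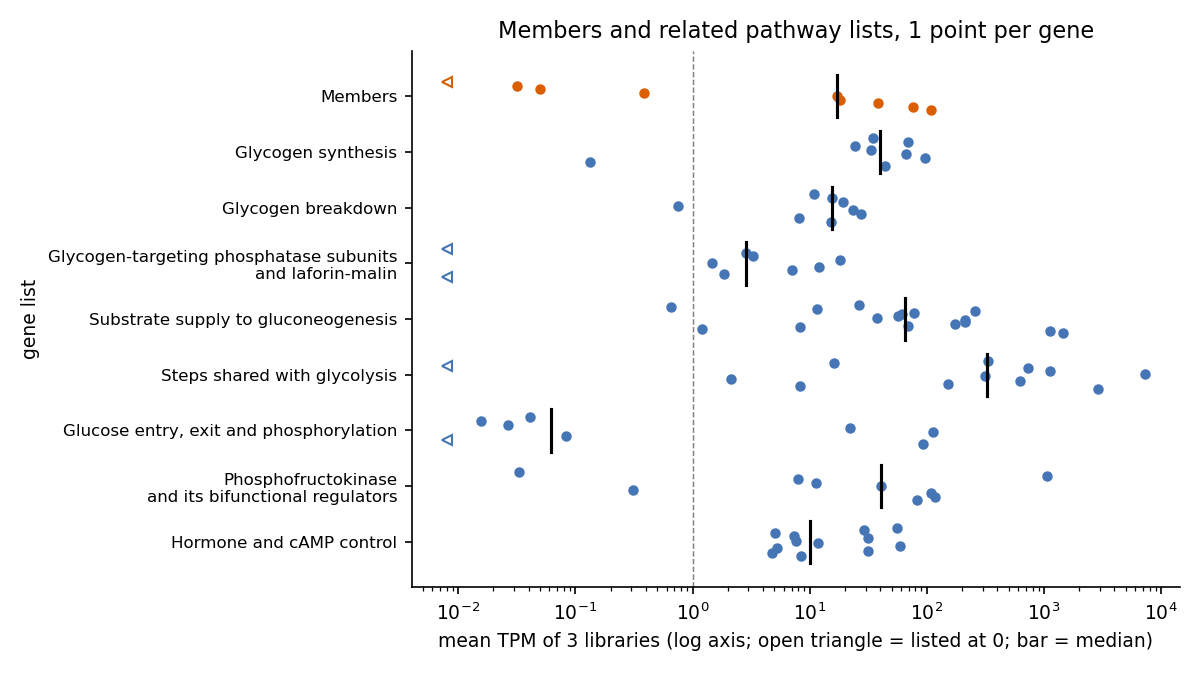
Mean TPM over 3 libraries (log axis) of each member and of each gene in 8 related lists, 1 point per gene, with open triangles for genes listed at 0, a bar for the median and a dashed line at 1 TPM. The medians run from 0.0620 TPM for glucose entry, exit and phosphorylation to 325 TPM for the steps shared with glycolysis, with 17.1 TPM for the members.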

How the data were processed

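RNA-seq values of 3 libraries labelled wild-type HepG2 were used, 1 table per library. Per the paper and the submitters' processing notes, paired-end reads of 150 bp were checked by the authors in FastQC 0.11.8, trimmed in Trim Galore 0.6.2 and aligned to GRCh38 in STAR 2.6.1a. StringTie is also named, with no version. The annotation and strand setting are not given in the sources used here. The coverage deposited by the authors is a mean read depth (signal) that is not scaled for library size. The deposited FPKM is scaled for length and library size, and the deposited TPM is scaled for length and to a fixed total in each library. No counts were used here, so the number of reads is unknown and precision is given as the SD over 3 libraries. The most frequent coverage per FPKM, which rises with depth, was 13.3, 12.8 and 11.5 in replicates 1, 2 and 3.

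Tables were joined by gene name and coordinates (43389 rows), of which 39320 lay on the main chromosomes. A gene was counted as present with at least 1 TPM in every library. Protein-coding rows were those with this biotype in RefSeq, and 91.5% of rows had a biotype. Ratios were log2 of TPM with a pseudocount of 1, tested by an exact permutation of signs (two-sided) with Benjamini-Hochberg adjustment over 10 ratios. Transcripts, exons and MANE transcripts came from GENCODE v44, and start sequences from RefSeq. The genes named were the members, their paralogs, the enzymes of opposing steps, rows that overlap a member, and the highest, lowest and zero genes of each list. Some genes that this rule names are not reported here. Genes named outside this rule were chosen after their values were seen. The members and lists were chosen with earlier results of these data known. The percentile and the range between replicates were tested on simulated libraries, and the permutation test on fixed numbers. The other calculations were not tested in this way. All were run with Python 3.11.15, numpy 2.4.6, pandas 2.3.3 and matplotlib 3.10.9. The alternatives were other scalings, limits and pseudocounts, FPKM or coverage in place of TPM, protein-coding genes only and leaving out each replicate.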

Additional observations from a re-analysis of the deposited data

How the results depend on the processing

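The number of members at the limit was 6 of 9 under a limit of 0.1 TPM, where FBP1 joined, and 5 of 9 under a limit of 10 TPM, without mitochondrially encoded genes, under median-of-ratios scaling and without any 1 replicate. The mean of each of the 10 ratios kept its sign with FPKM, coverage, a pseudocount of 0.1 and each replicate left out, and the test could pass under none of these. Scaling without mitochondrially encoded genes raised the members by a factor of 1.25, and recomputing the mitochondrial tRNA gene TRNC from its coverage by 1.20. With each replicate left out, the mean ranged from 107 to 109 TPM for G6PC3, from 74.7 to 78.5 TPM for PYGL, from 16.4 to 17.6 TPM for PCK2, from 0.0334 to 0.0635 TPM for PCK1 and from 0.0212 to 0.0479 TPM for GYS2. By coverage PC exceeded 59.1% of expressed genes in place of 72.9%. Ratios to genes near 0 moved most. A pseudocount of 0.1 raised the log2 ratio of PCK2 to PCK1 from 4.11 to 6.86 and that of GYS1 to GYS2 from 6.43 to 9.41, and FPKM in place of TPM lowered them to 3.16 and 5.40. The shares by coverage and with a replicate left out were chosen after seeing the data.

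No paired analysis was possible because only wild-type libraries were given, with nothing to pair them to. The unknown depth limits every value listed at 0.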
